A study of Mus musculus with 14 samples.

Results

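The hippocampal transcriptome of Gsdmd knockout mice raised in hyperoxia (KO-O2) was compared with that of wild-type mice raised in the same hyperoxia (WT-O2). The comparison takes in 7 of the 14 libraries of the series, 3 KO-O2 and 4 WT-O2. These libraries were taken by genotype and exposure and by no measured value, but the comparison was chosen with earlier results of these data known. The question is how the hippocampus differs between genotypes when both have been kept in high oxygen. All mice are recorded as C57/BL6, and the study's methods describe the knockout as a homozygous CRISPR deletion in exon 5 of Gsdmd on a C57BL/6N background, present in every cell of the body, with wild-type and knockout pups born to heterozygous parents. Both groups breathed 85% O2 from postnatal day 1 to postnatal day 14, and hippocampal polyA RNA was collected on postnatal day 15, 1 library per mouse. The remaining 7 libraries, 4 WT-RA and 3 KO-RA, come from mice of the same genotypes and age kept in room air and are given beside the hyperoxia values. Per-library values are listed in the order GSD404, GSD405, GSD406 and GSD408 for WT-O2, and GSD491, GSD494 and GSD495 for KO-O2.

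Gasdermin D is a cytosolic protein that inflammatory caspases cut once an inflammasome has assembled. Its freed N-terminal part opens pores in the plasma membrane, through which interleukins of the IL-1 family leave the cell and which can end in pyroptosis, a lytic and inflammatory form of cell death. In the brain the pathway is best known in microglia, and the developing hippocampus, with its pyramidal fields, its dentate gyrus that still makes granule neurons and its white matter that is starting to myelinate, is a tissue in which oxygen injury of the newborn has been studied.

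The 7 libraries summed to between 27272270 and 28209372 estimated counts. Of 36118 genes in the table, 16637 passed the filter on low counts and were tested. The labels of mouse GSD408 disagree, since its title and column name give hyperoxia and its treatment field gives room air, and it was analysed as WT-O2. Wild-type mice carry numbers from GSD398 to GSD408 and knockout mice numbers from GSD489 to GSD496, so genotype and range of mouse numbers cannot be told apart. The summed level of 4 Y-linked genes was 117, 2.69, 117 and 115 CPM (counts scaled to a common library size) in WT-O2 and 112, 3.63 and 2.36 CPM in KO-O2, and the sexes were not balanced between the groups. The summed level of 12 choroid plexus markers was 121.5 CPM in KO-O2 mouse GSD494 and between 1028 and 3508 CPM in the other hyperoxia libraries. Nothing in the labels says whether mice of a group shared a litter.

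Gsdmd itself (ENSMUSG00000022575) was examined first. Its estimated counts were 60, 51, 63 and 60 in WT-O2 and 38, 36 and 40 in KO-O2. Every KO-O2 library was below every WT-O2 library, and every one still held Gsdmd reads, and gene sums cannot tell a transcript with the deletion from one without it. The log2 fold change was -0.58 ± 0.19 (SE), with a Benjamini-Hochberg adjusted p (q) of 0.0962 from edgeR's quasi-likelihood test. The call held in 3 of 19 alternative settings. It was lost with DESeq2, and without any single one of the 7 hyperoxia libraries. In room air the counts were 44, 48, 51 and 41 in WT-RA and 22, 42 and 36 in KO-RA, which overlap.

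Genes were called differentially expressed by the study's own criteria, which were a log2 fold change of 0.322 or more in either direction, with p under 0.05 and q under 0.1. Of the 16637 genes, 1142 were called in KO-O2 vs WT-O2 (6.86%). The direction was uneven, with 418 genes higher (2.51%) and 724 genes lower (4.35%) in KO-O2. The falls were also larger than the rises. The median log2 fold change of the called genes was -0.77 among those lower and 0.50 among those higher, and -0.01 over all genes tested. A log2 fold change of -1 or below was found for 264 genes, and one of at least 1 for 31 genes. In 1068 of the called genes (93.5%) no KO-O2 library overlapped a WT-O2 library, where 19% of all genes tested showed no overlap. Because 3 against 4 libraries allow no exact two-sided p below 0.0571, a single gene was tested only through the fit across all genes.

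**Figure D1:**
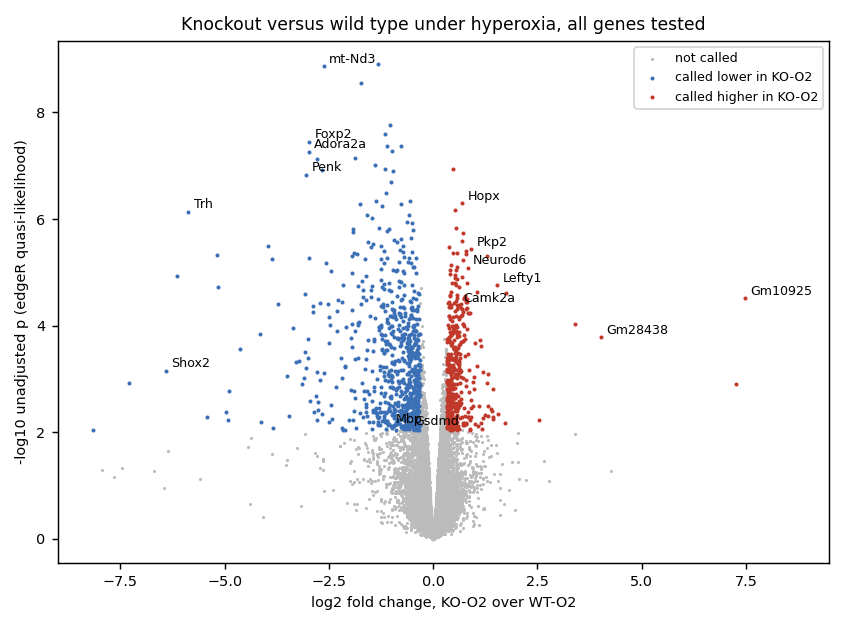
Each point is 1 of the 16637 genes tested, with the log2 fold change of KO-O2 over WT-O2 on the x axis and the unadjusted p of edgeR's quasi-likelihood test, as its negative log10, on the y axis. The 724 genes called lower (blue) reach further from 0 than the 418 genes called higher (red), apart from a few predicted genes such as Gm10925.

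One of the smallest q values in the comparison, 1.13e-05, belonged to mt-Nd3 (ENSMUSG00000064360), which encodes a subunit of respiratory complex I in the mitochondrial genome. It fell, while Gm28438 (ENSMUSG00000101939) rose, a copy of mt-Nd3 that lies in the nuclear genome and is annotated as a pseudogene. Gm28438 and the other predicted genes fall outside the rule for named genes and were chosen after their values were seen. The copies were compared by the transcripts of the GENCODE M21 annotation. Over the 345 bases of Gm28438, mt-Nd3 and Gm28438 differed at 1 base, T3C, counted from 1 at the 5′ end of the transcript, an identity of 99.71%. The first 33 bases of each are shown because they hold the 1 differing base, in capitals.
mt-Nd3: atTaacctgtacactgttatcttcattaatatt
Gm28438: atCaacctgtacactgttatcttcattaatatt

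The level of mt-Nd3 was 1043, 952.5, 800.2 and 744.4 CPM in WT-O2 and 143.5, 126.1 and 162.2 CPM in KO-O2 (log2 fold change -2.62 ± 0.20 SE, q = 1.13e-05). The lowest WT-O2 library stood well above the highest KO-O2 library. The level of Gm28438 was 154, 26.7, 20.9 and 2.17 CPM in WT-O2 and 853, 766 and 869 CPM in KO-O2, which is the opposite order (log2 fold change 4.03 ± 0.80 SE, q = 0.00812). Their sums were 1197, 979.2, 821.2 and 746.5 CPM in WT-O2 and 996.1, 891.8 and 1031 CPM in KO-O2, and these overlap. The share of the pair's counts that was assigned to the copy was therefore 12.9%, 2.73%, 2.55% and 0.291% in WT-O2 and 85.6%, 85.9% and 84.3% in KO-O2. In room air the share was 6.49% to 25.1% in WT-RA and 83.6% to 87.5% in KO-RA, so the split between genotypes was there without hyperoxia too. The value of either gene alone is uncertain, because the counting had to divide reads between near-identical transcripts.

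**Figure D2:**
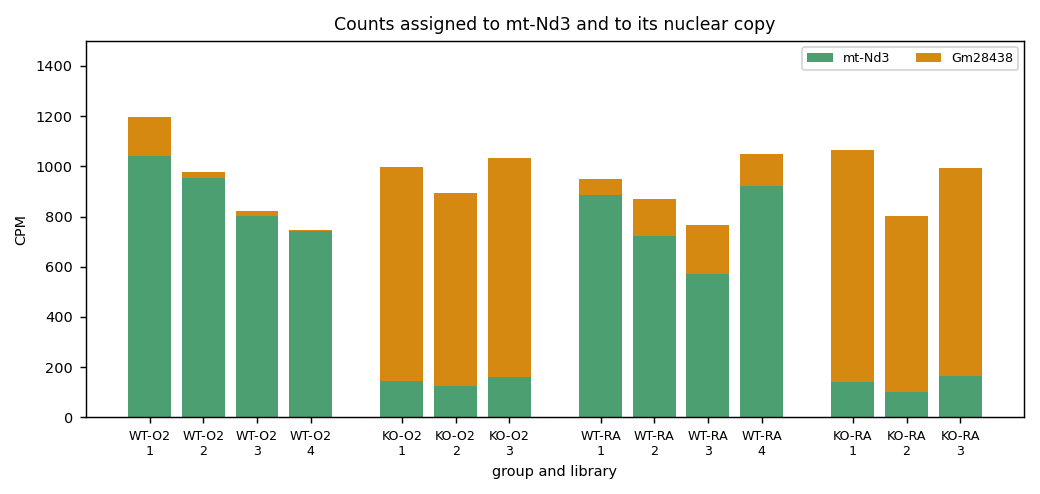
Stacked bars give the CPM assigned to mt-Nd3 (green) and to its nuclear copy Gm28438 (orange) in each of the 14 libraries, by group. The bars are of similar height in all groups, between 746.5 and 1197 CPM in hyperoxia, while the larger part changes from mt-Nd3 in the wild type to Gm28438 in the knockout.

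Other copies of mitochondrial genes did not all behave in this way. Gm10925, whose 678 bases are identical to part of mt-Atp6, was at 0, 0.215, 0.177 and 0.316 CPM in WT-O2 and at 48.5, 17.8 and 31.4 CPM in KO-O2 (q = 0.0034), while mt-Atp6 ranged from 9241 to 15291 CPM in WT-O2 and from 12616 to 15462 CPM in KO-O2. On average the copy held 0.0017% of the pair's counts in WT-O2 and 0.2407% in KO-O2. Reads within the identical bases cannot be told apart, so the level of Gm10925 alone is uncertain. The share of counts assigned to Gm28437, a copy of mt-Co3, was 71.4% ± 0.66 (SD, n = 4) for WT-O2 libraries and 70.3% ± 1.88 (SD, n = 3) for KO-O2 libraries. The share assigned to Gm28661, a copy of mt-Co2, was 93.0% ± 1.00 (SD, n = 4) and 94.0% ± 0.55 (SD, n = 3). The 12 other mitochondrially encoded subunits of the electron transport chain and ATP synthase were not called, and the median log2 fold change of all 13 was 0.10. Among the 5 genes called with a log2 fold change of at least 2, all were predicted genes. They were Gm10925, Gm28438, Gm15446, Gm49345 and Gm49391. Gm15446 was at 1.06, 1.255, 1.03 and 0.912 CPM in WT-O2 and at 10.7, 13.0 and 10.1 CPM in KO-O2.

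Among genes with an established name, the largest rises were modest. Lefty1, which encodes an inhibitor of Nodal signalling, was at 1.69, 2.51, 2.69 and 1.54 CPM in WT-O2 and at 6.62, 4.73 and 6.9 CPM in KO-O2 (log2 fold change 1.53, q = 0.00248). Tdo2, a tryptophan-degrading dioxygenase found in granule neurons, was at 3.59, 1.83, 3.43 and 2.7 CPM against 6.51, 6.35 and 6.45 CPM (log2 fold change 1.16, q = 0.01). Pkp2, the desmosomal plakophilin, was at 18.8, 18.6, 18.1 and 19.1 CPM against 34.7, 34.4 and 36.2 CPM (log2 fold change 0.91, q = 0.00113). The libraries of the groups did not overlap in these 3 genes, as the choice of the largest rises requires. The spread of Pkp2 within a group was small beside the difference. The remaining 9 of the 12 largest rises were Pou3f1, Spink8, Sebox, Eomes, Chrna5, Wipf3, Igfbpl1, Tbata and Neurod1, with log2 fold changes from 0.85 to 1.04. Wipf3, which binds actin regulators of the WASP family, was the most abundant of them, at 271, 246, 325 and 257 CPM in WT-O2 and 477, 500 and 542 CPM in KO-O2.

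The largest falls were of another size. Shox2, a homeobox gene of thalamic neurons, was at 2.93, 2.9, 11.3 and 21.5 CPM in WT-O2 and at 0.179, 0.0734 and 0.075 CPM in KO-O2 (fitted log2 fold change -6.40 ± 1.498 SE, q = 0.0204). Trh, the precursor of thyrotropin-releasing hormone, was at 7.18, 14.4, 19.4 and 20.1 CPM against 0.322, 0.257 and 0.188 CPM (log2 fold change -5.87 ± 0.71 SE, q = 0.000431). The KO-O2 libraries were near 0 for both genes, and the WT-O2 libraries differed among themselves by several-fold. Penk, the precursor of the enkephalins, was at 70.7, 135, 111 and 177 CPM against 15.5, 15.1 and 14.3 CPM (log2 fold change -3.04 ± 0.33 SE, q = 0.000135). Adora2a, the adenosine receptor of indirect-pathway striatal neurons, was at 15.1, 22.4, 20.3 and 29.5 CPM against 3.01, 1.94 and 3.3 CPM (log2 fold change -2.99 ± 0.30 SE, q = 9.11e-05). Within WT-O2, mouse GSD404 was the lowest and mouse GSD408 the highest for Penk and Adora2a, and the KO-O2 libraries lay close together. Foxp2, a forkhead factor of deep cortical, striatal and thalamic neurons, was at 14.8, 25.3, 20.7 and 28.3 CPM against 2.47, 3.08 and 3.0 CPM. Also among the 12 largest falls were Six3, Irs4, Cd4, Scn4b, Fign and Glra3, with log2 fold changes from -3.73 to -2.78.

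**Figure D3:**
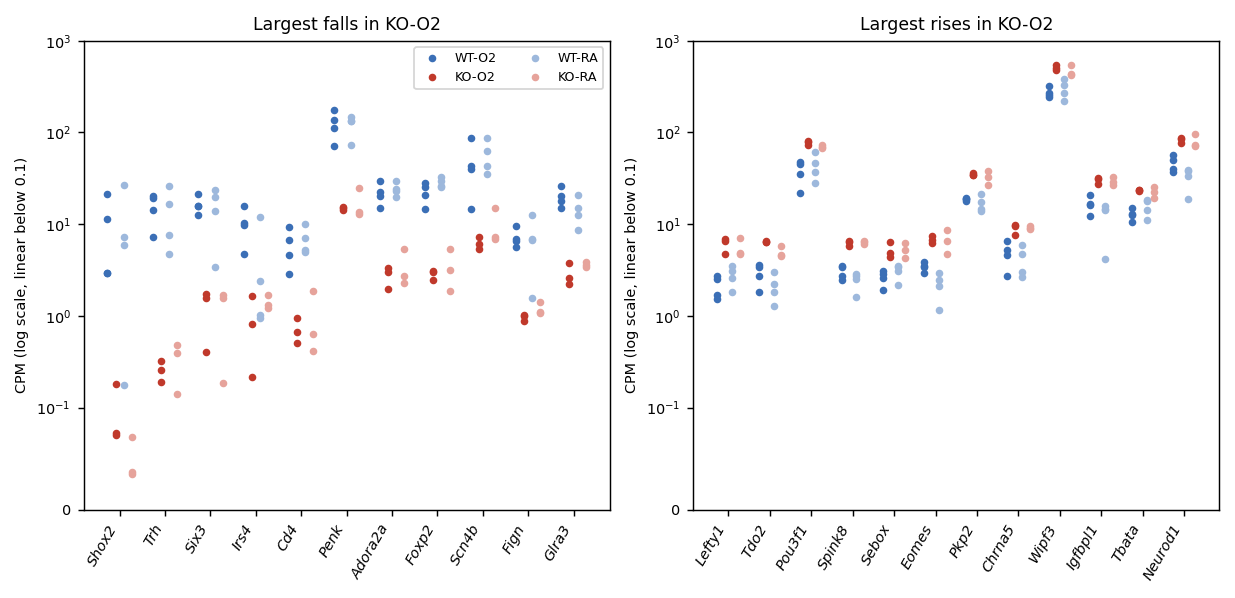
CPM on a log axis (linear below 0.1) in every library for 11 of the 12 largest falls (left) and the 12 largest rises (right), with WT-O2 in blue, KO-O2 in red and the room-air groups in paler colours. Within hyperoxia no KO-O2 point overlaps a WT-O2 point, as the choice of these genes requires, and the falls, from -6.40 to -2.78 on the log2 scale, are larger than the rises, from 0.85 to 1.53.

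The most abundant called genes included both directions. Camk2a, the alpha subunit of the calcium- and calmodulin-dependent kinase of excitatory synapses, was at 3250, 2870, 3120 and 2740 CPM in WT-O2 and at 4190, 4400 and 5040 CPM in KO-O2 (log2 fold change 0.60, q = 0.00385). Slc1a2, the main glial glutamate transporter, Cplx2, a complexin of the synaptic vesicle machinery, Actb, cytoplasmic actin, Ppp3ca, the calcineurin catalytic subunit, and Camk2b also rose, by 0.33 to 0.50 on the log2 scale. Mbp, myelin basic protein, was at 2540, 4100, 5310 and 6550 CPM in WT-O2 and at 3060, 1760 and 2040 CPM in KO-O2 (log2 fold change -1.02, q = 0.09). For Mbp, unlike Camk2a, the groups overlapped, since KO-O2 mouse GSD491 was above WT-O2 mouse GSD404.

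Genes that mark the hippocampus and its parent tissue, the pallium, were higher in KO-O2. Of 18 markers tested, 9 rose, none fell and 17 had a positive fold change. Over all genes tested, 2.51% were called higher and 4.35% lower, the shares to set beside this list and those below. Their median was 0.72 on the log2 scale against -0.01 over all genes tested. Their summed level was 1529, 1301, 1364 and 1218 CPM in WT-O2 and 1948, 2109 and 2184 CPM in KO-O2. These markers were thus present in every library, and the groups did not overlap. Neurod6, a bHLH factor of pyramidal neurons, was at 223, 200, 183 and 163 CPM in WT-O2 and at 328, 337 and 361 CPM in KO-O2 (log2 fold change 0.83, q = 0.00157). Emx2, a patterning gene of the hippocampal primordium, rose by 0.80 and Lhx2, a selector of cortical identity, by 0.43. Zbtb20, which specifies hippocampal pyramidal fate, was at 306, 225, 243 and 221 CPM against 344, 443 and 436 CPM. Fibcd1, Pou3f1 and Spink8, markers of field CA1, rose by 0.73, 1.04 and 1.04, and Grik4, a kainate receptor subunit rich in field CA3, by 0.56. Prox1 and Calb1, markers of dentate granule neurons, did not pass the test, although Tdo2 and Igfbpl1, granule neuron genes outside this list, were called higher. Prox1 was at 159, 82.2, 132 and 144 CPM against 218, 232 and 251 CPM, without overlap (q = 0.162). Calb1, calbindin, had a log2 fold change of -0.06 (q = 0.858). In bulk tissue, more cells of a type and more RNA per cell cannot be told apart, and the same holds for the falls.

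Markers of striatal projection neurons fell almost as a whole. Of 18 markers, 17 fell and none rose. The median was -1.97 on the log2 scale. Their summed level was 732.5, 1099, 1020 and 1436 CPM in WT-O2 and 491, 457.5 and 496.6 CPM in KO-O2, without overlap. Drd1, the D1 dopamine receptor of the direct pathway, was at 13.6, 20.4, 18.6 and 24.2 CPM against 3.22, 3.89 and 1.91 CPM (log2 fold change -2.67, q = 0.000122). Drd2, the D2 receptor of the indirect pathway, fell by 1.78, and Ppp1r1b, which encodes the dopamine-regulated phosphatase inhibitor DARPP-32, by 2.17. Tac1, the substance P precursor, fell by 1.37 and Pde10a, the striatal phosphodiesterase, by 1.01. The developmental factors Isl1 and Six3 fell by 3.86 and 3.73. Gng7, a G protein gamma subunit, was the marker that did not pass, with a log2 fold change of -0.06. Both dopamine receptors and the markers of both output pathways thus moved the same way.

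Markers of cholinergic neurons fell in 8 of 8 cases, and their median was -2.76 on the log2 scale. Chat, choline acetyltransferase, was at 0.44, 2.58, 1.17 and 3.44 CPM in WT-O2 and at 0.0716, 0.0367 and 0.0375 CPM in KO-O2 (q = 0.00258). Slc18a3 and Slc5a7, the vesicular acetylcholine transporter and the high-affinity choline transporter, fell by 3.35 and 1.60. Lhx8, the homeobox factor of forebrain cholinergic neurons, was at 0.513, 1.65, 1.2 and 1.33 CPM in WT-O2 and had reads in 1 of the 3 KO-O2 libraries, at 0.0367 CPM. Ngfr, a receptor for nerve growth factor, fell by 1.41. Ache, acetylcholinesterase, was far more abundant and changed least, at 87.6, 108, 109 and 116 CPM against 80.6, 81.2 and 80.0 CPM (log2 fold change -0.38, q = 0.0275). Most of these genes were at a few CPM or less, and 3 of the 8 were called when at least 10 counts were required in every library. Without KO-O2 mouse GSD495, 5 of the 8 were called.

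Thalamic markers fell in 7 of 12 cases and rose in none, and their median was -1.55 on the log2 scale. Their summed level was 317.8, 292.6, 507.3 and 746.2 CPM in WT-O2 and 205.9, 201.5 and 197.9 CPM in KO-O2. The WT-O2 libraries ranged over more than the distance between the groups, while the KO-O2 libraries were nearly equal. Tcf7l2, a Wnt effector of the developing thalamus, was at 29.8, 44.3, 51.5 and 64.9 CPM against 7.62, 7.08 and 8.48 CPM (log2 fold change -2.62, q = 0.0213). Slc17a6, the vesicular glutamate transporter of subcortical neurons, was at 66.2, 65.7, 89.9 and 119 CPM against 32.4, 27.1 and 21.8 CPM (q = 0.0362). Prkcd, a kinase of thalamic relay neurons, was at 33.7, 20.4, 81.3 and 152 CPM against 41.8, 39.5 and 36.2 CPM, which overlap (q = 0.535). The count of 7 fell to 3 without WT-O2 mouse GSD408, to 3 without KO-O2 mouse GSD491, to 2 without either KO-O2 mouse GSD494 or KO-O2 mouse GSD495, and to 4 without WT-O2 mouse GSD406. In room air the summed level was 1021, 403.1, 179.7 and 294.2 CPM in WT-RA and 179.6, 205.7 and 202.6 CPM in KO-RA.

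Oligodendrocyte and myelin markers were lower in 8 of 17 cases and higher in none. Their median was -1.09 on the log2 scale, but here the groups overlapped. The summed level was 5542, 8730, 11500 and 14440 CPM in WT-O2 and 6606, 3842 and 4309 CPM in KO-O2. Mog, the myelin oligodendrocyte glycoprotein, was at 37.7, 65.5, 92.7 and 114 CPM against 45.1, 23.5 and 24.6 CPM (q = 0.0736). Ugt8a, which makes galactocerebroside, had a log2 fold change of -1.17 (q = 0.0418). Olig2 and Sox10, transcription factors of the whole lineage, had log2 fold changes of -0.34 and -0.39 and did not pass the test, nor did any of 8 markers of oligodendrocyte precursors, whose median was -0.19. No myelin marker was called without WT-O2 mouse GSD408, without KO-O2 mouse GSD494 or without KO-O2 mouse GSD495. The count was 2 without WT-O2 mouse GSD406, 4 without WT-O2 mouse GSD405 and 16 without WT-O2 mouse GSD404. When scores of the thalamic and striatal markers entered the fit as covariates, 11 genes were called in KO-O2 vs WT-O2, 2 higher and 9 lower. A linear fit of genotype on these 2 scores over the 14 libraries had an R2 of 0.887.

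**Figure D4:**
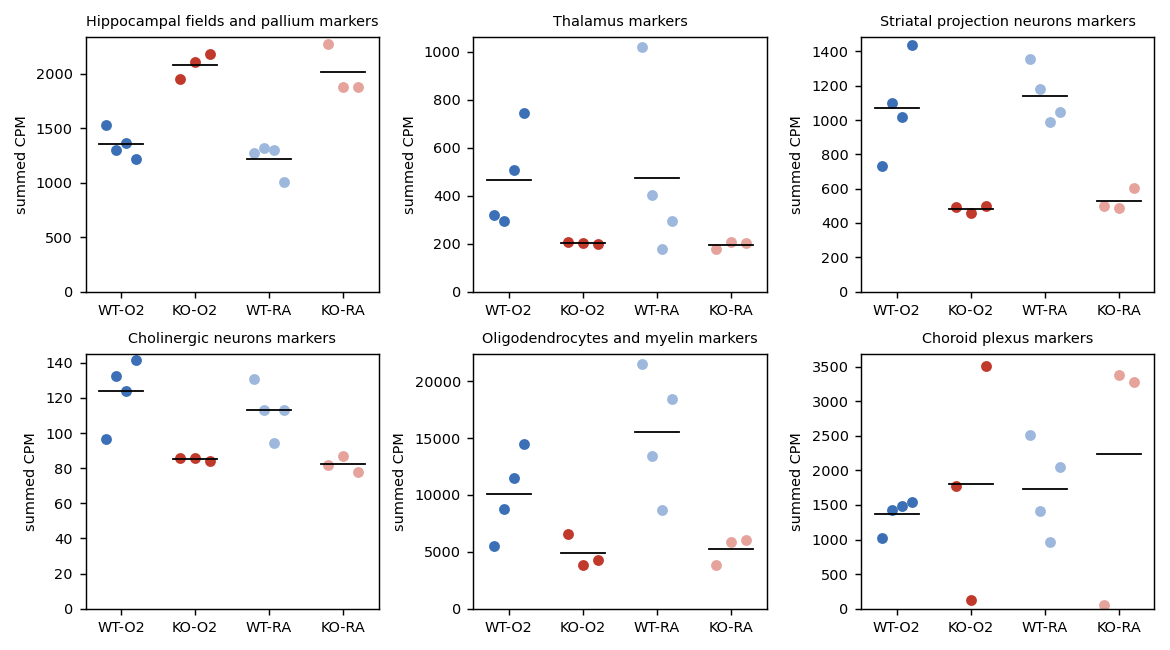
Summed CPM of 6 marker lists in each library, with 1 point per library and a black line at the group mean. The KO-O2 libraries sit above all WT-O2 libraries for hippocampal markers, with 1948 CPM or more, and below them for striatal, cholinergic and thalamic markers, while the groups overlap for myelin and choroid plexus markers.

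The marker lists of deep cortical layers, interneurons, habenula, choroid plexus and ependyma held fewer calls than those above. Of 11 markers of the subplate and deep cortical layers, 4 fell. Cplx3, a complexin of subplate neurons, was at 6.41, 11.2, 8.89 and 11.4 CPM in WT-O2 and at 3.22, 2.49 and 1.99 CPM in KO-O2 (log2 fold change -1.88, q = 0.007), and Ccn2, Foxp2 and Rprm were the others. The count of 4 was 2 without any one of WT-O2 mice GSD405, GSD406 and GSD408 or KO-O2 mice GSD494 and GSD495. Of 19 alternative settings, the call held in 18 for Cplx3 and for Foxp2, 9 for Ccn2 and 8 for Rprm. Of 18 interneuron markers, 4 fell and 1 rose, and 3 in all were called without KO-O2 mouse GSD495. Slc32a1, the vesicular GABA transporter, was at 99.7, 140, 125 and 136 CPM against 80.0, 79.4 and 80.5 CPM (log2 fold change -0.65, q = 0.00625). Gad2, which makes GABA, fell by 0.49, Lamp5 by 1.17 and Dlx5 by 0.56, and Cck, the cholecystokinin precursor, rose by 0.38. The subtype markers Sst, Pvalb and Vip were not called. Of 8 habenular markers, 1 had a positive fold change, Htr5b, which rose by 0.67. The others were not called, and the list median was -0.73 on the log2 scale. In this list WT-O2 mouse GSD405 was highest in 8 of 8 genes among the WT-O2 libraries. None of the 12 choroid plexus or 5 ependymal markers was called.

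Neural progenitor and immature neuron genes rose in 3 of 12 cases. Hopx, a marker of radial glia-like stem cells, was at 33.2, 30.6, 31.0 and 26.5 CPM in WT-O2 and at 54.9, 44.8 and 47.9 CPM in KO-O2 (log2 fold change 0.70, q = 0.000349). Eomes, the factor of intermediate progenitors, was at 3.88, 2.94, 3.43 and 3.47 CPM against 7.37, 6.16 and 6.75 CPM (log2 fold change 0.98, q = 0.0245). Igfbpl1, which marks newborn granule neurons, was at 20.6, 12.4, 16.4 and 16.2 CPM against 31.6, 27.4 and 31.1 CPM (q = 0.0962). In these 3 genes every KO-O2 library was above every WT-O2 library, which the choice of the largest rises required of Eomes and Igfbpl1. The Igfbpl1 call held in 6 of 19 alternative settings and was lost with DESeq2, without any single KO-O2 library and without WT-O2 mouse GSD405, GSD406 or GSD408. Sox2 and Nes had log2 fold changes of -0.09 and -0.07, and the immature neuron marker Dcx overlapped between groups, at 120, 86.0, 76.9 and 65.0 CPM against 96.3, 113 and 108 CPM. None of 15 cell cycle genes was called, and their median was 0.04.

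No microglial marker was called. The 15 markers had a median log2 fold change of 0.08 and a summed level of 545.2, 538.5, 575.1 and 517.8 CPM in WT-O2 and 604.6, 530.5 and 583.1 CPM in KO-O2. Aif1, which encodes the microglial protein IBA1, was at 2.64, 1.65, 2.37 and 2.42 CPM against 2.79, 2.97 and 2.21 CPM (q = 0.605), and the lysosomal marker Cd68 was at 12.5, 13.8, 13.2 and 12.9 CPM against 13.5, 12.1 and 14.6 CPM (q = 0.918). Both overlapped between the groups. Among 13 astrocyte genes the glutamate transporters Slc1a2 and Slc1a3 rose by 0.37 and 0.41, the first not called without KO-O2 mouse GSD495, and Gfap, the astrocyte filament protein, had a log2 fold change of 0.29 that missed the fold threshold (q = 0.0692). None of 15 endothelial and mural markers was called.

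The gasdermin and inflammasome list held 1 call, Gsdmd, among the 15 of 20 genes that could be tested. That share was near the 6.86% of all genes tested. Il1b, the substrate cytokine of the pathway, was under the filter on low counts. Casp1, which cleaves gasdermin D, was at 1.5, 1.68, 1.35 and 1.16 CPM in WT-O2 and at 1.54, 2.24 and 1.69 CPM in KO-O2 (log2 fold change 0.36, q = 0.343). In room air its log2 fold change was 1.38, and the interaction p of 0.00193 did not pass adjustment over all genes. Casp4, Nlrp3 and Pycard had log2 fold changes of -0.07, 0.15 and 0.08, and Il18 of 0.09. Gsdme, another pore-forming gasdermin, was at 21.4, 20.2, 18.9 and 19.6 CPM against 21.2, 24.8 and 22.0 CPM (q = 0.227). These genes overlapped between the groups. Of 7 tested genes of the IL-1 and IL-6 cytokine families, Il33, an alarmin of oligodendrocytes and astrocytes in brain, fell, from 13.6, 15.3, 13.0 and 14.8 CPM to 9.63, 7.96 and 9.0 CPM (log2 fold change -0.68 ± 0.19 SE, q = 0.0558). No KO-O2 library reached the lowest WT-O2 library for Il33, and in room air its log2 fold change was -0.02. The Il33 call held in 9 of 19 alternative settings. It was lost with mouse GSD408 as room air, without any single KO-O2 library and without WT-O2 mouse GSD405 or GSD408. The interleukin receptors Il1r1, Il1rap and Il6st were not called.

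None of 12 interferon-response and MHC class I genes was called. Their median was 0.27 on the log2 scale, and the summed level was 93.72 to 108.9 CPM in WT-O2 and 109.8 to 139.7 CPM in KO-O2. B2m, the light chain of MHC class I, was at 37.6, 39.5, 43.2 and 42.1 CPM against 48.6, 44.2 and 54.6 CPM (log2 fold change 0.28, q = 0.0602), which is under the fold threshold. None of Bhlhe40, Edn1 and Ier3, listed because they were also measured by qRT-PCR, was called. They had log2 fold changes of 0.10, -0.41 and -0.25, and their libraries overlapped for all but Edn1. Among the VEGF ligands, receptors and neuropilins, Nrp1, the coreceptor of class 3 semaphorins and VEGF, rose from 58.5, 49.8, 51.3 and 42.0 CPM to 69.5, 76.3 and 75.8 CPM (log2 fold change 0.55, q = 0.00481). Vegfa was at 68.2, 107, 51.3 and 146 CPM against 114, 80.8 and 105 CPM, and its WT-O2 libraries enclosed those of KO-O2.

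Neurotransmitter receptors changed in both directions. Of 28 amine receptor genes tested, 12 fell and 3 rose, where 6.86% of all genes tested were called. Chrm2, the M2 muscarinic receptor, was at 16.3, 19.5, 16.4 and 15.7 CPM in WT-O2 and at 8.84, 7.19 and 6.98 CPM in KO-O2 (log2 fold change -1.15, q = 0.000122). Adra1b, an alpha-1 adrenergic receptor, was at 9.09, 9.82, 12.2 and 13.0 CPM against 4.62, 3.56 and 3.98 CPM (log2 fold change -1.44, q = 0.00103). Htr2c, the serotonin receptor of choroid plexus and forebrain neurons, was at 115, 151, 112 and 102 CPM against 61.7, 58.7 and 64.1 CPM (log2 fold change -0.96, q = 0.0335). The serotonin receptors Htr1b, Htr1d, Htr2a and Htr7, the adrenergic receptors Adra2a and Adra2b, Chrm4, and the histamine receptors Hrh1 and Hrh3 fell as well, by 0.55 to 1.97. The receptors that rose were Adra1d, Chrm1 and Chrm3, by 0.36 to 0.54, and Chrm1 and Chrm3 are the muscarinic receptors of pyramidal neurons. Chrm1 was at 210, 205, 205 and 190 CPM against 243, 257 and 278 CPM.

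Glutamate receptors held 2 rises and 6 falls among 23 genes, and 5 calls in all without KO-O2 mouse GSD495. Over all genes tested, 6.86% were called. Gria1, an AMPA receptor subunit abundant in the hippocampus, was at 641, 645, 649 and 561 CPM in WT-O2 and at 803, 920 and 897 CPM in KO-O2 (log2 fold change 0.48, q = 0.00666), and Grin2a, an NMDA receptor subunit, rose by 0.54. Gria4 was at 100, 98.5, 95.7 and 111 CPM against 64.5, 68.3 and 65.6 CPM (log2 fold change -0.62, q = 0.000584). Grik3, Grin3a, Grm4 and Grm8 were also among the falls, by 0.50 to 1.09. Among 14 GABA-A receptor subunits, Gabra5, the extrasynaptic alpha subunit of hippocampal pyramidal neurons, rose from 243, 231, 227 and 190 CPM to 303, 335 and 347 CPM (log2 fold change 0.56, q = 0.00319). Gabra3, Gabrg1, Gabrd and Gabrq fell, and Gabrq was at 7.25, 12.5, 9.67 and 9.12 CPM against 1.32, 2.24 and 1.61 CPM (log2 fold change -2.48, q = 0.00609). In each of these genes with values shown, the groups did not overlap, as in 19% of all genes tested.

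Of 37 potassium channel genes, 9 fell and 1 rose, where 6.86% of all genes tested were called. Kcnn2, the small-conductance calcium-activated channel of pyramidal neurons, was at 49.1, 49.7, 47.4 and 47.3 CPM in WT-O2 and at 66.7, 72.4 and 69.1 CPM in KO-O2 (log2 fold change 0.52, q = 0.000413). Kcna6, a Shaker-type channel, was at 96.2, 100, 106 and 112 CPM against 74.0, 76.3 and 68.9 CPM (log2 fold change -0.51, q = 0.00117). The other falls were Kcna3, Kcna5, Kcnh2, Kcnh4, Kcnh5, Kcnk3, Kcnk9 and Kcnt1, by 0.46 to 1.62. Of 19 alternative settings, the call held in 5 for Kcna3, 8 for Kcnt1, and 9 for Kcnh2 and for Kcnh5. It held in 15 to 18 for Kcna5, Kcnh4, Kcnk3 and Kcnk9. Without KO-O2 mouse GSD491 or GSD495 the count of 10 was 5 in each case. Of 15 neuropeptide precursors tested, Trh, Pdyn and Cartpt fell, by 5.87, 0.79 and 1.59. Pdyn, the dynorphin precursor made by granule neurons and striatal neurons, was at 18.2, 19.0, 17.9 and 25.2 CPM against 12.3, 9.79 and 12.8 CPM. Bdnf, the neurotrophin of excitatory neurons, rose from 29.9, 25.7, 27.1 and 22.2 CPM to 33.9, 35.9 and 39.6 CPM (log2 fold change 0.48, q = 0.0146), alone among 6 neurotrophins and receptors. Of 12 immediate early genes, Egr3 rose by 0.39, and Fos and Dusp1 fell by 0.72 and 0.46. The count of 3 was 0 with mouse GSD408 as room air and 1 without WT-O2 mouse GSD408, KO-O2 mouse GSD494 or KO-O2 mouse GSD495.

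Guidance and patterning genes moved in both directions. Of 41 semaphorin, Slit and netrin genes and their receptors, 3 rose and 6 fell, where 6.86% of all genes tested were called. The count of 9 was 5 without WT-O2 mouse GSD408 or KO-O2 mouse GSD495 and 14 without WT-O2 mouse GSD404. Sema3a, a secreted repellent of axons, was at 13.7, 21.0, 14.7 and 17.9 CPM in WT-O2 and at 4.55, 4.44 and 4.2 CPM in KO-O2 (log2 fold change -1.94, q = 0.00125). Unc5d, a netrin receptor, was at 44.6, 55.6, 51.8 and 46.9 CPM against 23.4, 29.5 and 27.6 CPM (log2 fold change -0.89, q = 0.00513). Sema3f, Sema6a, Plxnc1 and Ntn1 fell, and Sema3c, Sema3e and Slit1 rose by 0.35 to 0.50. Of 19 alternative settings, the call held in 7 for Sema3c, 9 for Sema3e and 16 for Slit1. It held in 11 to 17 for Sema3f, Sema6a, Plxnc1 and Ntn1. Slit1, a repellent ligand of Robo receptors, was at 109, 111, 120 and 121 CPM against 138, 169 and 162 CPM. Of 22 Eph receptors and ephrins, 4 rose and 4 fell. The receptors Epha3, Epha4 and Epha6 rose, with Epha6 at 35.9, 32.4, 39.8 and 29.6 CPM against 51.9, 60.1 and 63.2 CPM (log2 fold change 0.76, q = 0.00323), as did the ligand Efna4. The ligand Efna5 fell from 14.6, 11.5, 10.3 and 10.7 CPM to 4.22, 5.65 and 5.03 CPM (log2 fold change -1.25, q = 0.0022), and Efnb1, Efnb2 and Epha10 fell by 0.38 to 0.55. The count of 8 was 3 without KO-O2 mouse GSD495, 4 without WT-O2 mouse GSD405 and 5 without KO-O2 mouse GSD494 or WT-O2 mouse GSD406 or GSD408.

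In the BMP pathway, 2 of 21 genes rose and 4 fell, where 6.86% of all genes tested were called. The ligand Bmp2 was at 4.51, 5.05, 4.89 and 3.82 CPM in WT-O2 and at 1.97, 2.49 and 2.51 CPM in KO-O2 (log2 fold change -0.97, q = 0.00491). The secreted BMP antagonists went opposite ways, with Chrd, chordin, rising from 21.1, 16.5, 17.7 and 15.4 CPM to 26.2, 36.5 and 25.1 CPM (log2 fold change 0.73, q = 0.00338) and Nog, noggin, falling from 6.6, 8.82, 8.64 and 8.94 CPM to 4.65, 4.62 and 5.1 CPM (log2 fold change -0.78, q = 0.00392). The receptor Acvr1 rose by 0.35, and the signal transducers Smad1 and Smad9 fell by 0.35 and 0.38. Of 19 alternative settings, the call held in 12 for Acvr1, 9 for Smad1 and 7 for Smad9. The target genes Id1, Id2, Id3 and Id4 were not called. Of 27 collagens, 2 were called, a share near the 6.86% of all genes tested, and the list median was -0.17 on the log2 scale. Col5a3 and Col24a1 fell, by 0.78 and 1.18. Col24a1 was not called without WT-O2 mouse GSD408, KO-O2 mouse GSD491 or KO-O2 mouse GSD495.

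**Figure D5:**
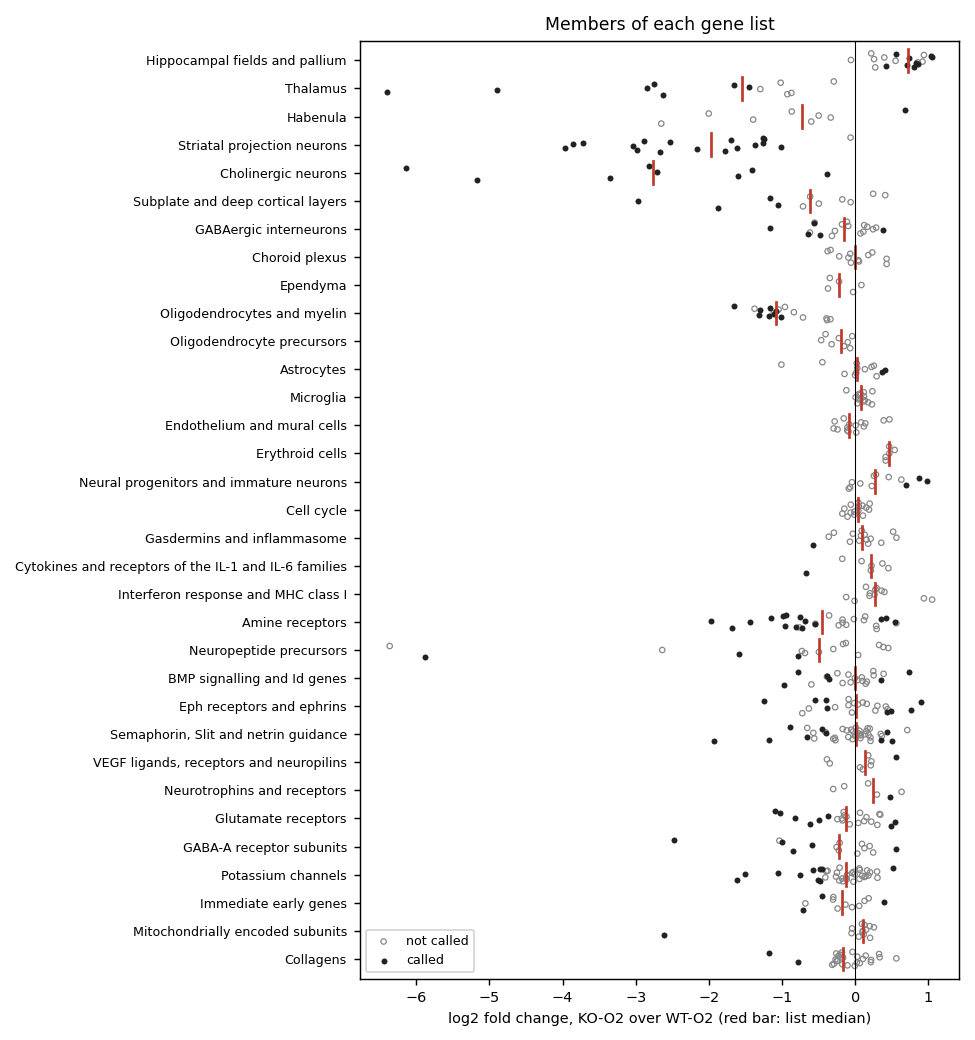
Each point is the log2 fold change of KO-O2 over WT-O2 for 1 member of the list named on the left, filled where it was called and open where it was not, with the list median as a red bar. The striatal, cholinergic and thalamic medians lie at -1.97, -2.76 and -1.55, that of the hippocampal list at 0.72, and those of microglia, choroid plexus and cell cycle genes between -0.01 and 0.08.

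Genes near the Gsdmd locus were looked at because the knockout allele is inherited with its neighbours. Within 5 Mb on either side, by the positions of a RefSeq annotation, 164 genes were tested and 6 were called (3.66%, against 6.86% of all genes). They were Gsdmd, Kcnk9, Cacna1i, Fam83f, Apol7b and Arhgap39. Arhgap39, a GTPase-activating protein, rose from 110, 101, 113 and 110 CPM to 149, 154 and 163 CPM (log2 fold change 0.52, q = 0.00236). Apol7b had no count in any KO-O2 library and 2.09, 2.33, 0.708 and 0 CPM in WT-O2. The share called was highest on chromosome X, at 9.93%, and 6.1% on chromosome 15, which carries Gsdmd. Because the sexes were not balanced between the groups, sex and genotype are mixed in the share on chromosome X, and the part of sex was not tested. Among 6 tested genes known to differ between C57BL/6 substrains, Entpd4 and Crb1 were called, both lower in KO-O2. Nnt and Nlrp12, also on this list of 8, were not among the genes tested. Crb1 was at 1.5, 2.55, 3.19 and 1.51 CPM in WT-O2 and at 0.537, 0.624 and 0.525 CPM in KO-O2 (q = 0.0103), and the part of background genotype in the differences was not tested.

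The same genotype comparison in room air, KO-RA vs WT-RA, called 1738 genes (10.4%). Of the 1142 genes called in hyperoxia, 755 were also called in room air in the same direction, and 34 had the opposite sign there. The difference between the genotype effects was tested directly as the interaction of genotype and exposure. edgeR called 0 genes for it (0%), with 673 genes at an unadjusted p below 0.05 (4.05%), and DESeq2 called 0 genes with 708 at that level. Of the 387 genes called in hyperoxia and not in room air, 94 had an unadjusted interaction p below 0.05. None of the genotype differences above can therefore be called particular to hyperoxia from these libraries.

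Leading genes are given here with both of their fold changes. The log2 fold changes in hyperoxia and in room air were -6.40 and -7.59 for Shox2, -5.87 and -5.34 for Trh, -3.04 and -2.81 for Penk, -2.97 and -3.03 for Foxp2, 0.91 and 0.94 for Pkp2, and 0.60 and 0.63 for Camk2a. They were further apart for Irs4, at -3.50 and -1.51 (q = 0.271 in room air, not called), for Glra3, at -2.78 and -1.97, and for Lefty1, at 1.53 and 1.02. Eomes and Neurod1 had 0.98 and 0.85 in hyperoxia and 1.61 and 1.31 in room air. The called genes with the smallest interaction p were Car7, Tmem35a, Lingo2, Abca8a, Runx2 and Kirrel3, and none passed adjustment. Car7, a neuronal carbonic anhydrase, was at 11.8, 11.8, 11.4 and 12.3 CPM in WT-O2 and at 17.0, 16.9 and 15.8 CPM in KO-O2, with a log2 fold change of 0.49 in hyperoxia and -0.27 in room air. Runx2, a Runt transcription factor, was at 5.97, 7.6, 6.37 and 6.73 CPM against 10.5, 11.9 and 12.3 CPM, with log2 fold changes of 0.80 and 0.15. Lingo2 and Kirrel3, neuronal adhesion molecules, had log2 fold changes of -0.50 and -0.57 in hyperoxia and of -0.12 and -0.19 in room air.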

How the data were processed

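Hippocampal polyA RNA of 14 mice was sequenced as paired-end reads, 1 library per mouse. The deposited table holds estimated counts by gene. The authors made them with Kallisto against a GRCm39 annotation and tximport, per the study's methods; versions and count scaling are not given in the sources used here. Between 41% and 43.2% of values per library were not whole. Counts were rounded, filtered with filterByExpr and normalized by TMM. All 14 libraries were fitted in edgeR 4.0.16 (R 4.3.3), each group having 1 coefficient, without covariates. The genotype effect in hyperoxia, that in room air and their difference (the interaction) were tested by the quasi-likelihood F-test, two-sided, with Benjamini-Hochberg adjustment over 16637 genes. CPM are scaled by TMM and are not corrected for length. Symbols and neighbours came from reference tables of the mouse, and of 36118 identifiers 35825 had a symbol. Reference transcripts were of another build, so coordinates are not given.

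The comparison, gene lists and named genes were chosen with earlier results of these data known. The named genes are the 12 largest rises and 12 largest falls among called genes without overlap and with at least 5 CPM in the higher group, leaving out predicted genes; the 8 called genes of highest mean CPM; called members and up to 4 others per list by role; called genes within 5 Mb of Gsdmd; and the 6 called genes of smallest interaction p. A few genes that meet this rule are left out of the text. p-values measure the spread between these mice. Alternatives were DESeq2 1.42.0, other scalings, filters and thresholds, the groups compared alone, mouse GSD408 moved to room air, covariates made from marker scores, and each library left out in turn.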

Additional observations from a re-analysis of the deposited data

Results flagged for a closer look

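Over the 4 WT-O2 libraries, 201 values (named genes, called list members and list sums) were examined for 1 library far from the other 3 by Dixon's criterion, which chance alone meets in about 1 of 20 groups, and 9 met it. The summed Y-linked level of mouse GSD405 was 2.688 CPM, with the other 3 at 115 to 117.2 CPM. The Gm28438 level of mouse GSD404 was 154 CPM, with the others at 2.17 to 26.7 CPM. Mouse GSD404 also stood apart for Epha4, at 317 CPM against 255 to 261 CPM, and for Nog, at 6.6 CPM against 8.64 to 8.94 CPM. Mouse GSD405 stood apart for Htr7, at 16.8 CPM against 14.3 to 14.7 CPM. Mouse GSD408, whose labels disagree on its exposure, stood apart for Lingo2 at 30.1 CPM against 27.9 to 28.1 CPM, for Pdyn at 25.2 CPM against 17.9 to 19.0 CPM, for Chrm3 at 37.2 CPM against 43.0 to 44.0 CPM, and for Gria1 at 561 CPM against 641 to 649 CPM. The 3 KO-O2 libraries were too few for this criterion.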

How the results depend on the processing

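All 1142 genes called in KO-O2 vs WT-O2 kept their direction wherever they were tested again, in the refits with DESeq2, other scalings, filters, the groups compared alone, a score of Y-linked genes or of myelin, and each library left out, but not with thalamic and striatal scores as covariates, where 953 of 1142 did. A fold change of 1.5 left 607 genes (140 higher and 467 lower), and 942 in KO-RA vs WT-RA. With mouse GSD408 as room air 276 genes were higher, of 766 in all. With thalamic and striatal scores as covariates 11 were called (2 higher and 9 lower) and 73 in room air; mt-Nd3, Mef2c and Necab1 had the smallest q among them, names chosen after their values were seen. With each library left out in turn the count ranged from 675 to 1283 (249 to 449 higher, 426 to 834 lower), lowest without KO-O2 mouse GSD495, where 630 of the 675 were shared; in room air it ranged from 1076 (without KO-RA mouse GSD489) to 1929. The interaction stayed at 0 in every refit. DESeq2 called 1308 genes. With a myelin score, on which a linear fit of genotype has an R2 of 0.607, 818 were called, of which 520 were shared; with a Y-linked score 866 were called. Both scores were chosen after seeing the data. The 9 calls of the hippocampal list became 14 with the groups compared alone and 5 with the myelin score. With the thalamic and striatal scores they became 0, as did the 17 striatal calls. The striatal score was made from those same striatal markers, so the loss of the striatal calls was fixed in advance. Genotype fitted on the thalamic and striatal scores has an R2 of 0.887, so a fit with them can say little about genotype. No paired analysis was possible because mice of different groups share no numbers.

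With thalamic and striatal scores as covariates, 33 named genes changed sign, and the cause was not tested. Some of them, such as Drd2 and Rgs9, are members of the striatal score. None of the 33 was called in that fit, so their signs there are uncertain. Their log2 fold changes became 0.22 for Cd4, 0.81 for Scn4b, 0.78 for Mbp, 0.72 for Drd2, 0.29 for Ppp1r1b, 0.52 for Rgs9, 0.19 for Pde10a, 0.062 for Gpr6, 0.15 for Ido1, 0.29 for Syndig1l, 0.13 for Rarb, 0.036 for Slc18a3, 0.22 for Slc5a7, 0.41 for Ngfr, 0.52 for Gbx1 and 0.032 for Ccn2. They became 0.90 for Mog, 0.89 for Mag, 0.88 for Cldn11, 0.79 for Ermn, 0.57 for Ugt8a, 0.70 for Gjb1, 0.15 for Smad9, 0.16 for Sema6a, 0.16 for Ntn1, 0.062 for Grm4, 0.13 for Gabrd, 0.29 for Kcnh2, 0.12 for Dusp1, -0.019 for Chrm1, -0.0104 for Acvr1, -0.023 for Bdnf and -0.17 for Egr3.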
